A study of Homo sapiens with 12 samples.

Results

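Of 12 arrays that measured Huh7, a cell line grown from a human hepatoma, 6 carried a high signal of HLA-DRA and 6 a low one, and both classes are compared here across all measured genes. HLA-DRA encodes the alpha chain of HLA-DR, the class II molecule that shows peptides to helper T cells. The arrays were selected on this transcript, so every gene difference between the classes is given as a description, with no test. The high class held the arrays whose titles open with the codes A1, A3, B1, B2, B3 and C1, and the low class held A2, A4, B4, C2, C3 and C4.

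Each of 3 groups had 4 arrays: untreated cells, cells given recombinant human erythroferrone (ERFE) and cells given recombinant mouse ERFE, both at 10 µg/ml for 24 h. All cells grew in the same serum-supplemented medium in 24-well plates, and no group received a vehicle or a control protein. ERFE is released by developing red cells, binds bone morphogenetic proteins (BMPs) and lowers hepcidin, the peptide that holds iron back in cells. The high class held 3 of 4 untreated arrays (A1, A3 and B3), 2 of 4 human ERFE arrays (C1 and B2) and 1 of 4 mouse ERFE arrays (B1), so class and treatment were unevenly spread over each other. By the number in the title code, all 3 arrays numbered 1 were high and all 3 numbered 4 were low, with 1 of 3 high at number 2 and 2 of 3 at number 3. What the code stands for is not given in the labels.

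Class II molecules are carried by dendritic cells, macrophages and B cells, and other cells can make them after interferon-gamma, through the transactivator CIITA. CD74, the invariant chain, escorts class II molecules to the compartment where they load peptide. CD1A and CD1B present lipids and, with the IgE receptor chain FCER1A, mark dendritic cells that arise from monocytes or sit in skin. CCL22 is a chemokine that such cells release. Huh7 is of the hepatocyte lineage and is known for albumin, alpha-fetoprotein and apolipoproteins.

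The arrays were of like overall quality in both classes. The raw median probe signal ran from 143 to 186.3 (median 160.3) on the high arrays and from 139.5 to 170.9 (median 151.2) on the low ones. Between 36.17% and 39.06% of probes were detected on the high arrays and between 34.45% and 37.43% on the low ones. Albumin, alpha-fetoprotein and the other hepatocyte products were bright on all 12 arrays, with a list mean of 12.95 to 13.19 (log2 signal) on the high arrays and 13 to 13.07 on the low ones. Values below are background-corrected, quantile-normalized log2 signals, and levels of different probes are not compared with each other. RNA was taken from whole cell populations, so more cells of a type and more RNA per cell cannot be told apart.

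The HLA-DRA signal was 11.03 on A3, 10.56 on B1, 10.41 on A1, 10.20 on B3, 9.81 on C1 and 9.52 on B2. On the low arrays it was 7.94 on C3, 7.87 on A2, 7.83 on C2, 7.77 on A4, 7.54 on B4 and 7.06 on C4. The array just inside the boundary (B2) and the one just outside it (C3) were thus 9.52 and 7.94, with the transcript still detected on all 12 arrays. With treatment as a covariate, high minus low was 2.61 on the log2 scale, and a second HLA-DRA probe gave 3.84.

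**Figure D1:**
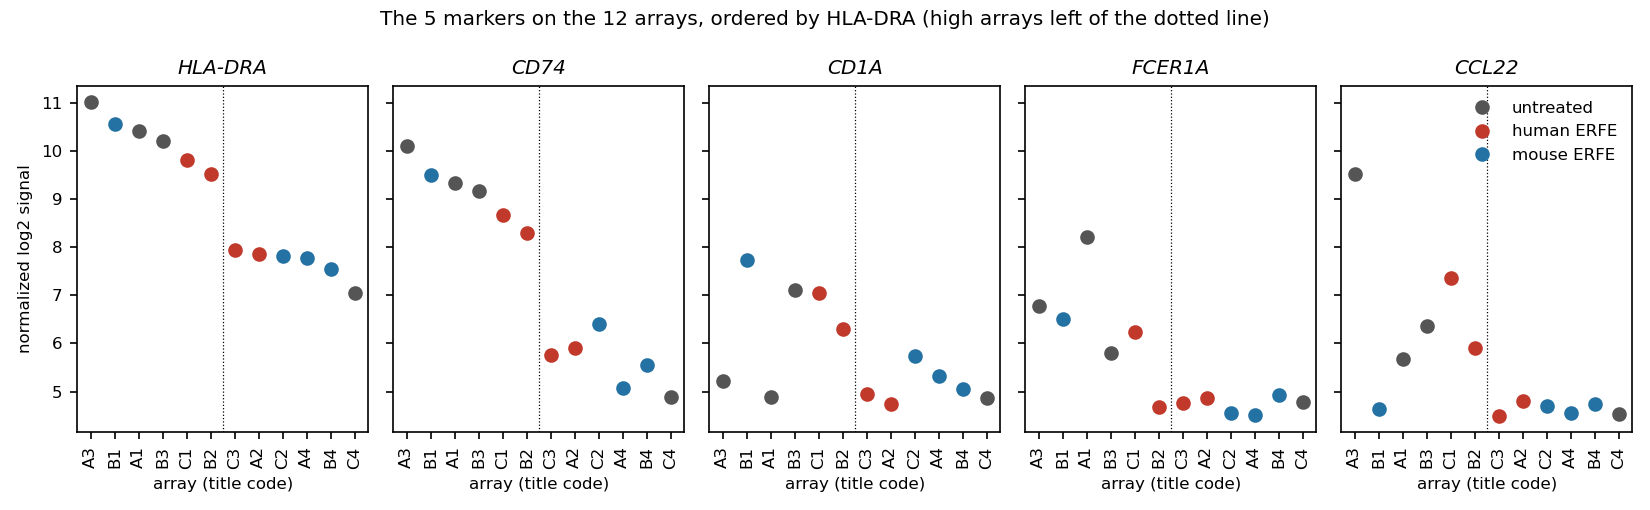
Normalized log2 signal (y axis) of HLA-DRA, CD74, CD1A, FCER1A and CCL22 on each of the 12 arrays (x axis, title code, ordered by HLA-DRA), coloured by treatment, 1 point per array. HLA-DRA and CD74 share one order on the 6 high arrays, from A3 down to B2, while CD1A peaks on B1 (7.73), FCER1A on A1 (8.21) and CCL22 on A3 (9.53).

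Across 10891 measured genes, 53 (0.487%) had a fitted difference of 2-fold or more higher on the high arrays after adjustment for treatment, and 0 (0%) were 2-fold or more lower. The median difference of all genes was -0.01. All 6 high arrays lay above all 6 low ones for 85 genes (0.78%) and below them for 11 (0.101%). Of the 53 genes, 44 had no overlap between the classes and 51 were higher on the high arrays within each of the 3 treatment groups. Within untreated cells alone 69 genes reached this size, within human ERFE cells 36 and within mouse ERFE cells 60, each resting on 1 to 3 arrays a side. The count depends on how dim signals are handled: it was 26 with an offset of 50 in place of 16, and 9 without background correction. Of the 53 genes, 24 were detected on no low array and 11 on all 6 low arrays, and 3 are not named here. For those 24 the fitted difference is no bound, and their high mean lay at least 2-fold above the detection limit of the low arrays for 12 and by less for the other 12. They are given below by that bound, as at least N-fold higher. The bound compares plain class means without adjustment for treatment, so it is not on the scale of the fitted differences. A gene was measured if detected on any 4 of the 12 arrays, so the 6 high arrays alone could admit it. This held for 38 of the 53, which were detected on fewer than 4 low arrays. Counts and medians over the measured members of a list are partly set by this filter and support nothing by themselves.

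The class II genes led the list. HLA-DPA1, the alpha chain of HLA-DP, was 10.39 on A3, 10.03 on B1, 9.76 on A1, 9.46 on B3, 9.09 on C1 and 8.88 on B2. On the low arrays it lay between 4.64 (C4) and 6.02 (A2), detected on 3 of 6, so the groups did not overlap. The difference of 4.17 was the largest of all genes. CD74 was 10.11 on A3, 9.50 on B1, 9.33 on A1, 9.16 on B3, 8.68 on C1 and 8.30 on B2, against 4.88 (C4) to 6.41 (C2) on the low arrays, 4 of which detected it. Its difference was 3.60, with 3.45 at a second probe and 0.34 at another that was detected on no array. HLA-DMA, a chain of the molecule that loads peptide onto class II, was 1.13 higher (high 7.11 ± 0.46, low 6.04 ± 0.25, SD, n = 6 each). HLA-DMB differed by 0.52 and IFI30, a thiol reductase of the same compartment, by -0.04. Of 11 genes listed for class II presentation 6 were measured and 4 had a fitted difference of 2-fold or more, with a median of 1.87. CIITA, CTSS, HLA-DPB1 and HLA-DOB were detected on no array. Among 7 measured class I genes, TAP1, a peptide transporter, was detected on no low array and at least 2.03-fold higher, while HLA-F differed by 0.60, HLA-E by 0.26 and B2M by 0.07.

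Within the 6 high arrays the other 4 markers followed HLA-DRA to differing degrees. The arrays and the markers were both chosen with these values known, so the correlations are a description of 6 arrays, with no p. For CD74 Pearson's r was 0.999 and Spearman's rho 1.0, and r was 0.997 without A3 and B2, the arrays farthest from the median. For FCER1A r was 0.629 and rho 0.771, with r at 0.41 without the same arrays. For CD1A r was -0.326 and rho -0.0857, with r at -0.119 without them. For CCL22 r was 0.376 and rho 0.0286, and r was -0.975 without them. No title number or letter held enough high arrays to repeat these relations within it.

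Genes of dendritic cells were also higher, and they were not high on the same arrays as each other. CD1A was 7.73 on B1, 7.11 on B3, 7.05 on C1 and 6.30 on B2, but 5.22 on A3 and 4.88 on A1, where it was not well above background. The low arrays held 4.75 (A2) to 5.73 (C2), so the classes overlapped. FCER1A was 8.21 on A1, 6.78 on A3, 6.50 on B1, 6.24 on C1 and 5.79 on B3, and 4.67 on B2, within the low range of 4.51 to 4.93. It was detected on 0 of 6 low arrays, and the high mean was at least 1.92-fold above the detection limit there. CD1B was 7.54 on A1, 7.45 on A3, 6.50 on B1, 6.44 on B3, 6.02 on C1 and 5.77 on B2, all above the low arrays (4.59 to 5.09), and at least 2.29-fold higher. CCL22 was 9.53 on A3, 7.36 on C1, 6.35 on B3, 5.90 on B2 and 5.67 on A1, while B1 had 4.64, inside the low range of 4.49 to 4.80. It was detected on no low array and was at least 2.21-fold higher. Within mouse ERFE cells, where B1 was the only high array, its difference was -0.03. Of 12 dendritic cell identity genes 4 were measured, and CD1A, CD1B and FCER1A had a fitted difference of 2-fold or more, with CD1E at -0.17. None of the 4 was detected on as many as 4 low arrays. CD209, CD207, FLT3 and MRC1 were detected on no array, and CD1C on 3 of 6 high and 0 of 6 low arrays. CD83, a surface protein of mature dendritic cells, differed by 1.49 (9.01 on A3, 7.12 to 7.98 on the other high arrays, 6.05 to 6.66 on the low ones). The other measured maturation genes, CD86, FSCN1, LAMP3 and CD80, differed by 0.33, 0.27, 0.17 and 0.14.

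Transcripts shared by white blood cells were higher as well. SRGN, the core protein of leukocyte granules, was 10.35 on A3 and 8.22 to 8.67 on the other high arrays, against 5.02 to 6.56 on the low ones, a difference of 3.03. TYROBP, the signalling adaptor DAP12 of myeloid and natural killer cells, was 8.26 on A3, 7.50 on B3, 7.44 on B1, 7.10 on A1, 6.90 on B2 and 6.78 on C1. Its low arrays held 4.67 to 5.77, with C2 the highest and 1 of 6 detected, and its difference was 2.31. Of 20 pan-leukocyte genes 8 were measured, 4 of them detected on fewer than 4 low arrays (TYROBP, PLEK, WAS and CORO1A), and 5 had a fitted difference of 2-fold or more. Of the 3 detected on all 12 arrays, ARHGDIB differed by 1.27, ITGB2 by 1.11 and LCP1 by 0.50. PLEK, detected on no low array, was at least 2.09-fold higher. PTPRC, which encodes the leukocyte common antigen CD45, was detected on no array, nor were LAPTM5, LCP2, CYBB and NCF4. NCF1, a subunit of the phagocyte oxidase, was detected on no low array and at least 2.80-fold higher, and its copy NCF1C, detected on 1 low array, differed by 1.67. These probes may share signal between near-identical copies, as may that of CCL4L1 (at least 2.54-fold higher).

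Markers that separate the kinds of leukocyte were uneven. Among 14 measured monocyte and macrophage genes of 18, C1QB and C1QC, chains of the complement component C1q, were detected on no low array and were at least 1.60-fold and 1.42-fold higher. No other measured member had a fitted difference of 2-fold, and the list median was 0.02. CD14 differed by -0.03, CD68 by 0.05, LYZ by -0.11 and VCAN by -0.02, each detected on all 12 arrays, while CD163 and FCGR1A were detected on none. S100A9 differed by 0.57 and ITGAM by 0.61. Of 10 T cell genes 4 were measured and 1 had a fitted difference of 2-fold or more, the cytokine receptor IL7R (1.43, detected on 3 low arrays). CD3D differed by -0.10, and CD3E, CD3G and CD5 were detected on no array. No measured member was 2-fold higher among B cell genes (2 measured, CD79A 0.25 and CD79B 0.09), NK cell genes (1 measured), neutrophil genes (2 measured, median -0.23) or platelet genes (1 measured). No listed gene of mast cells and basophils or of erythroid cells was measured. Endothelial and fibroblast genes held none either, with 1 and 5 members measured.

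**Figure D2:**
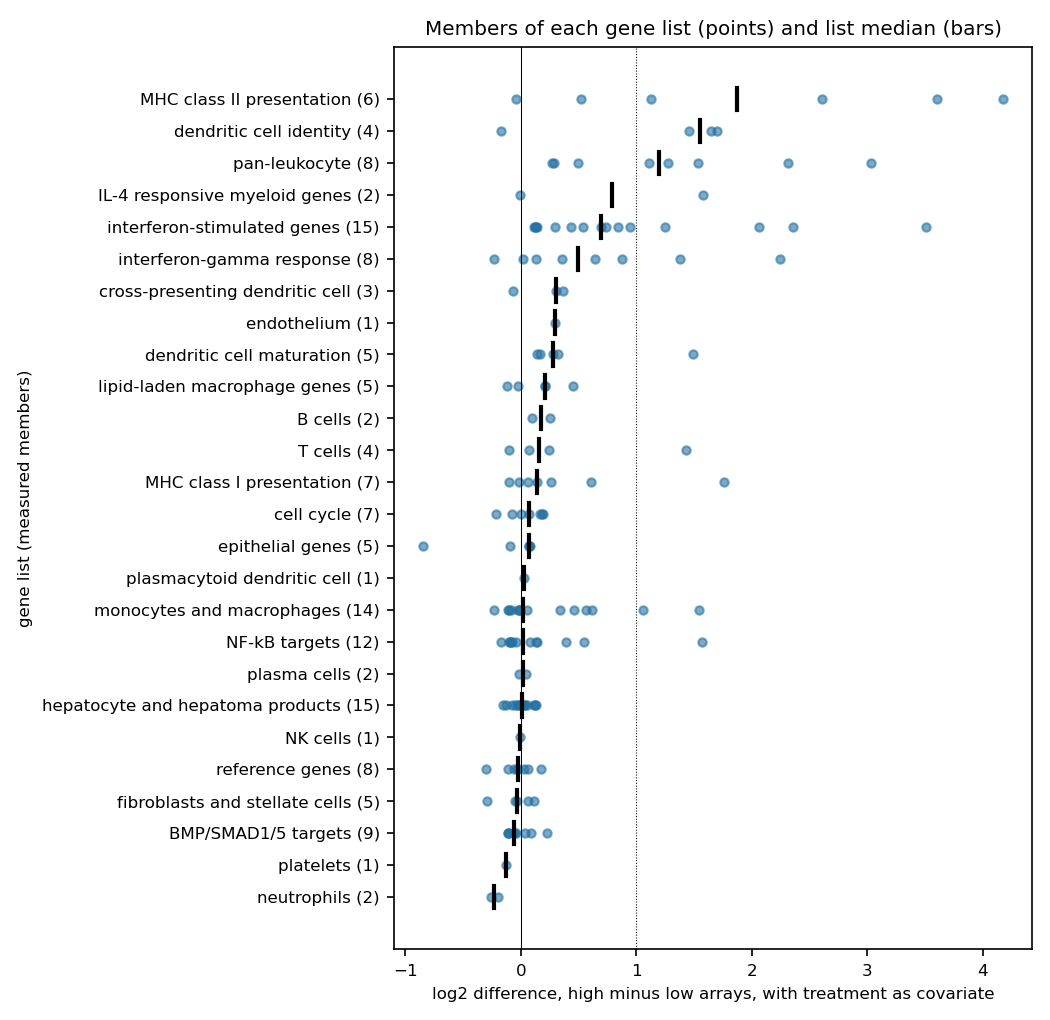
Log2 difference, high minus low arrays with treatment as covariate (x axis), of each measured gene (points) in each list (y axis, number measured in brackets), with the list median as a bar and 2-fold as a dotted line. The class II (median 1.87), dendritic cell identity (1.55) and pan-leukocyte lists (1.19) stand to the right of the dotted line, where genes detected on few low arrays also fall, and hepatocyte products lie at 0.01.

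Several genes that interferons induce were higher. MX1, a GTPase that blocks viruses, was 9.10 on A3, 9.07 on B3, 8.89 on B1, 8.76 on A1, 8.16 on B2 and 7.76 on C1, against 4.53 to 5.83 on the low arrays. The difference was 3.51, and the classes did not overlap. IFIT2, which binds foreign RNA, was 8.11 on B1 and lowest on A3 (6.31) among the high arrays. It was detected on no low array and at least 3.27-fold higher. OAS2, an enzyme that activates RNA decay, was at least 2.40-fold higher by the same measure at the probe used. Its other probes, detected on no array, differed by -0.009, 0.027 and 0.055. Of 17 interferon-stimulated genes 15 were measured, and 7 of these were detected on no low array, so that the high arrays alone admitted them. The 7 detected on all 12 arrays differed by 0.11 to 1.25, with 1 of them 2-fold or more. Among these IFIT1 differed by 1.25, ISG15 by 0.53, IFI6 by 0.44 and OAS1 by 0.11. IFI44, detected on no low array, was at least 1.42-fold higher. CXCL10, a chemokine for activated T cells, was 9.25 on B1, 9.15 on B3, 8.74 on A3, 8.69 on B2, 8.16 on A1 and 8.01 on C1, and 6.13 to 7.01 on the low arrays, a difference of 2.25. Of 8 measured genes of the interferon-gamma response 2 had a fitted difference of 2-fold or more, CXCL10 and the GTPase GBP1 (1.37, detected on 2 low arrays). IRF1 differed by 0.64 and SOCS1 by -0.23, and IDO1, detected on no low array, was at least 1.51-fold higher.

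Several inflammatory cytokines and chemokines were higher too, and IL1B, CCL5, IL6, CCL3, CCL23 and IL1RN each had their highest signal on A3. This sets them little apart, since A3 was the highest array for 34 of the 53 genes. Other chemokines peaked elsewhere: CXCL10 on B1 (9.25, against 8.74 on A3) and, by a small margin, CCL4L1 and CCL8 on B3. CCL4L1 was 7.30 on B3 and 7.24 on A3, and CCL8 was 6.97 and 6.96. IL1B was 8.33 on A3, 7.29 on B3, 6.75 on B2, 6.15 on A1, 5.85 on C1 and 5.31 on B1, against 4.44 to 5.21 on the low arrays, and at least 2.27-fold higher. CCL5 was 9.18 on A3, 8.54 on B3, 8.27 on B2, 7.28 on C1, 7.11 on B1 and 6.79 on A1, with 5.85 to 6.59 on the low arrays. At the probes used, both were highest on A3, B3 and B2, in that order. CCL5 differed by 1.43 there and by 0.88 at a second probe. IL1RN, the natural inhibitor of the IL-1 receptor, ran from 5.88 on C1 to 7 on A3. Of 12 measured NF-kB targets only IL1B had a fitted difference of 2-fold or more, the median was 0.02, and CXCL8 differed by 0.54, NFKBIA by -0.04 and CXCL1 by -0.10. IL6, CCL3 and CCL23, singled out after their values were seen and detected on no low array, were at least 2.08-fold, 1.61-fold and 1.48-fold higher. The signal on A3 was 8.15 for IL6, 6.84 for CCL3 and 6.65 for CCL23, and CCL23 was lowest of the high arrays on B2 (5.15). SLC2A3, a glucose transporter of white cells and neurons, was 9.44 on A1, 8.17 on A3, 7.75 on B1, 7.62 on B3, 7.47 on C1 and 6.95 on B2, against 4.63 to 5.52 on the low arrays. COXFA4L3, a small protein related to a subunit of the respiratory chain, was 10.38 on A3 and 8.15 to 9.22 on the other high arrays. Its difference was 3.10 at the probe used, 1.11 at a second and 0.13 at another that was detected on no array. FGL2, ADA2 and RFTN1, detected on no low array, were at least 2.76-fold, 2.21-fold and 1.84-fold higher, and ADAM19, detected on 1, differed by 1.74.

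**Figure D3:**
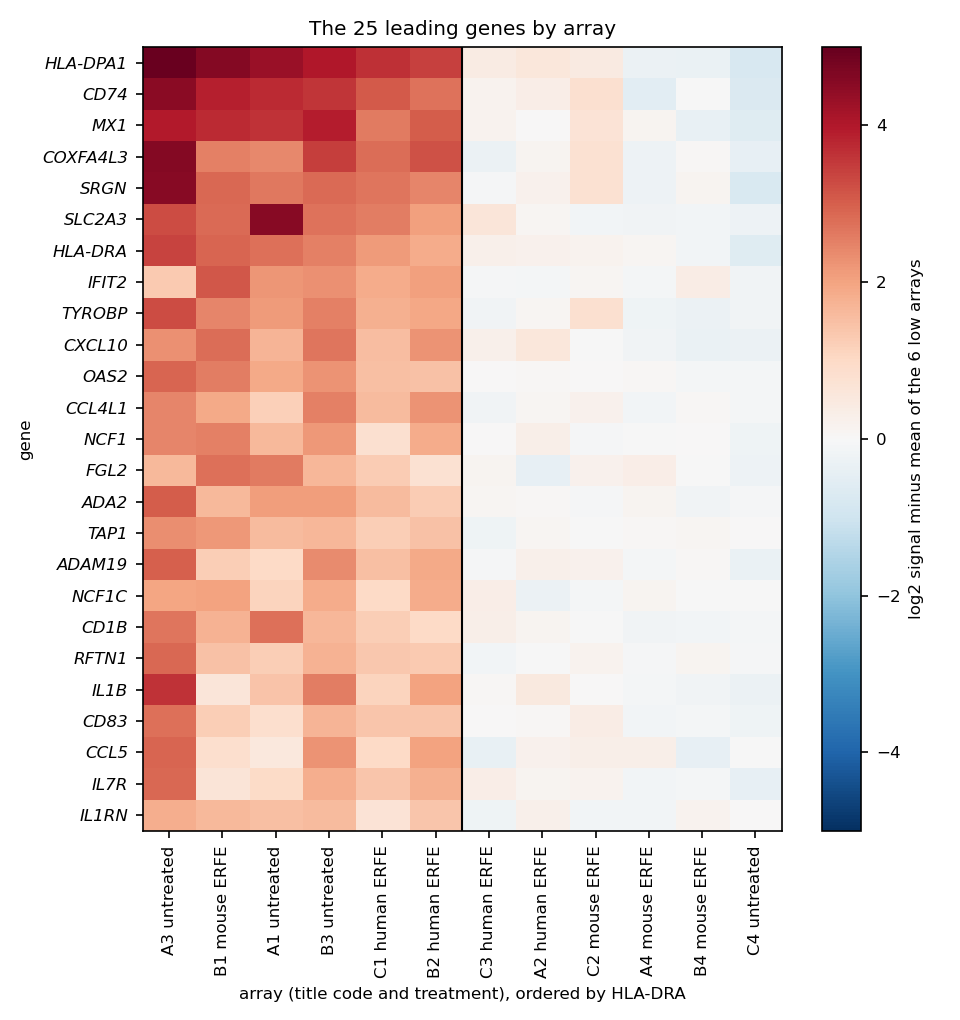
Log2 signal minus the mean of the 6 low arrays (colour) for the 25 leading genes without overlap between the classes (rows, ordered by difference) on each array (columns, ordered by HLA-DRA; the line parts high from low). HLA-DPA1, with the largest difference (4.17), is at the top, and A3 is darkest for most rows while IFIT2 is palest there among the high arrays.

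Promoter sequences (RefSeq, GRCh38.p14, 250 bases before to 50 after a start) were matched by symbol for 35 of the 50 nameable genes among the 53. Those shown were picked for holding a motif, from the class II, interferon and leukocyte groups. HLA-DPA1, at both of its starts in the table, and FCER1A held none of the 4 motifs searched. Capitals mark short motifs found on either strand. In CD74 (chr5:150412861-150413160, minus strand) the capitals mark the Y box core ATTGG, read as its reverse complement. In MX1 (chr21:41420308-41420607, plus strand, the first of 3 starts) they mark the interferon response element core AAANNGAAA. CXCL10 (chr4:76023448-76023747, minus strand) held both, and TYROBP (chr19:35908246-35908545, minus strand) held the core of a PU.1 site, GAGGAAGT, read as its reverse complement.
CD74: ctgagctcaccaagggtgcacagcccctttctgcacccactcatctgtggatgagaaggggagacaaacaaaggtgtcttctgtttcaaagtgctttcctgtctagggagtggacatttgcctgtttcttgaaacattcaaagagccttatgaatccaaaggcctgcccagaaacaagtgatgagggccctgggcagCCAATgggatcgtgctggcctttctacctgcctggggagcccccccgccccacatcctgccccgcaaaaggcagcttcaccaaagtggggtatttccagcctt
MX1: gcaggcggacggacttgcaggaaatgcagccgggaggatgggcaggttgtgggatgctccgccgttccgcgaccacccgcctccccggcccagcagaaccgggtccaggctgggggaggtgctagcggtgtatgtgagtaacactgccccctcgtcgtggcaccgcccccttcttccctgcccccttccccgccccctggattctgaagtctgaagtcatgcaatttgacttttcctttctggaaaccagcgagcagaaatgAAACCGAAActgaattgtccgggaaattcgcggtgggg
CXCL10: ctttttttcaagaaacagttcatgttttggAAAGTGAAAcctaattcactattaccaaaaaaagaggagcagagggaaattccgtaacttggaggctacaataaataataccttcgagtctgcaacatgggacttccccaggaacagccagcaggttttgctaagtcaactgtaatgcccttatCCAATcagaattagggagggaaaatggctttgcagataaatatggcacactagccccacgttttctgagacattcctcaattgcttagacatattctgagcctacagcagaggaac
TYROBP: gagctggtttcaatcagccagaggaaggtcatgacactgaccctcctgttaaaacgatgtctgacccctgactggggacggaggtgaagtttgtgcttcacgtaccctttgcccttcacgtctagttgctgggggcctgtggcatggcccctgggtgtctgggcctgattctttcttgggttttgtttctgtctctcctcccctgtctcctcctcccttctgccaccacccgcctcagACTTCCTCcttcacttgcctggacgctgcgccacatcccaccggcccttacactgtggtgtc

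The interferon element core stood in 13 of the 35 genes (37.1%). This compares with 10.5% of all 35116 promoters, each counted singly, and 10.1% of the 8806 measured genes with a promoter. The PU.1 core, bound by a factor of myeloid and B cells, stood in 7 (20%), against 2.59% and 3.4%. CCL22, CD1A and NCF1 were among these 7. The Y box core stood in 13 (37.1%), against 34.6% and 44.1%, and the class II X box core GCAACNNAT in 0 of 35, against 1.5% and 1.58%. HLA-DRA, IFIT2, OAS2, CD1B, SRGN and CCL5 had no promoter sequence to search and are not among the 35. The X box result thus says nothing about HLA-DRA. A gene counted once if any of its starts held the motif, so the share of measured genes is the like comparison and that of single promoters is not. These shares describe letters only.

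Part of the added signal kept a fixed proportion from array to array, and part did not. On the linear scale the excess of CD74 over the low arrays was 49.9% to 56.0% of the HLA-DRA excess on the 6 high arrays, a range of 1.12-fold, and that of HLA-DPA1 was 67.6% to 81.0% (1.20-fold). OAS2 ran from 5.76% to 9.19% (1.59-fold), TYROBP from 9.04% to 16.5% (1.82-fold) and MX1 from 25.9% to 51.4% (1.98-fold). The excess of CCL5 ran from 2.75% on A1 to 43.6% on B2 (15.9-fold) and that of IL1B from 0.988% on B1 to 15.6% on A3 (15.8-fold). The small ends of these ranges rest on signals near the floor or the low arrays, so the fold ranges are imprecise. IL1B was 5.31 on B1, where the lowest detected signal was 5.305. CCL5 was 6.79 on A1, against up to 6.59 on the low arrays. IL7R varied 10.8-fold and IFIT2 7.65-fold, from 2.50% on A3 to 19.1% on B2. SLC2A3 reached 57.6% on A1 and lay between 13.7% and 21.2% elsewhere. FCER1A reached 23.3% on A1 and -0.237% on B2, CD1A 14.0% on C1 and -0.518% on A1, and CCL22 37.9% on A3 and about 0 on B1. These percentages compare different probes and so describe proportions between arrays, not between genes. Where the added transcripts came from was not tested.

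**Figure D4:**
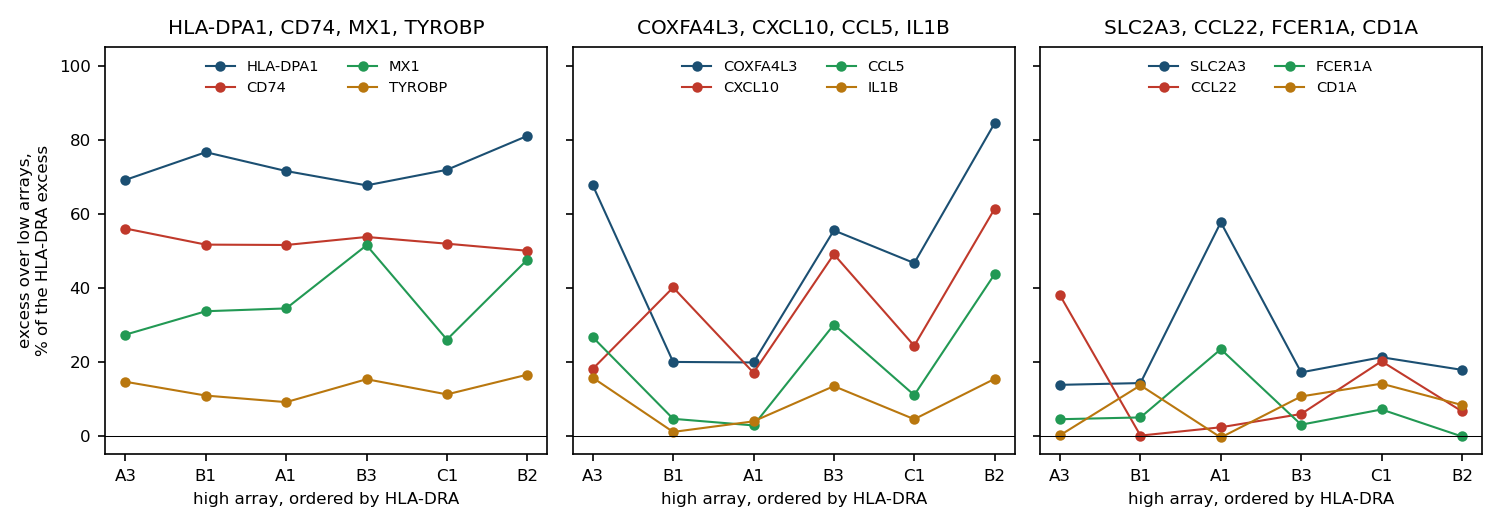
Excess of 12 genes over the mean of the low arrays, as a percentage of the HLA-DRA excess of the same array (y axis), on the 6 high arrays (x axis, ordered by HLA-DRA). CD74 (49.9% to 56.0%) and HLA-DPA1 (67.6% to 81.0%) run nearly flat, CCL5 and IL1B are lowest on A1 and B1, and SLC2A3 and FCER1A peak on A1.

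A3 had the highest signal for 34 of the 53 genes, B1 for 10, A1 for 7 and B3 for 2. B2 had the lowest of the high arrays for 19, A1 for 14 and C1 for 13. The SD among high arrays had a median of 0.62 (0.35 to 1.70) over the 53 genes, against 0.25 among the low arrays, and it was the larger of both for all 53. The low arrays were not alike either. C2 was the highest of them for 18 of the 53 genes and A2 for 16, C4 for 1. C2 lay a median of 0.18 above the mean of the other low arrays and C4 had a median of -0.21 against it.

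No measured hepatocyte, cell cycle or reference gene listed differed 2-fold with treatment as covariate. Within untreated arrays, where C4 was the only low one, the reference gene PPIA differed by -1.29 and the cell cycle gene RRM2 by -1.06. PPIA was 7.02, 6.46 and 6.58 on A1, A3 and B3 and 7.98 on C4. Within human and mouse ERFE arrays PPIA differed by 0.19 and 0.03, and RRM2 by 0.17 and 0.11. The 15 hepatocyte products differed by -0.15 to 0.14 (median 0.01), with ALB at -0.02 and AFP at -0.03. The 7 measured cell cycle genes had a median of 0.07 and the 8 reference genes one of -0.03. KRT18, an epithelial keratin, had the lowest difference of all genes (-0.84). It was 5.82, 5.36 and 5.02 on A1, A3 and B3 but 7.24 to 8.98 on the other 9 arrays, the high arrays B1 (8.77), C1 (8.53) and B2 (7.96) among them. Genes below the low arrays without overlap differed little: CASTOR1, an arginine sensor of the mTORC1 pathway, by -0.72, SLC6A6, the taurine transporter, by -0.60, and SNORD25, a small nucleolar RNA, by -0.44. The other 7 of the 10 such genes named by rule (MIDN, TMEM214, USP30, PLD1, TUBA4A, CEACAM1 and CMTM7) lay between -0.33 and -0.12.

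Treatment was then compared over all arrays with limma, adjusted over 10891 genes, which does not use the classes. The labels do not say whether arrays stand for separate cultures, so the p-values reflect array-to-array spread, which may be technical. Human ERFE changed 27 genes (0.248%), 12 of them higher and 15 lower, and mouse ERFE changed 24 (0.22%), 8 higher and 16 lower. None of the 53 genes was among them, with smallest adjusted p-values of 0.714 and 0.325. An unadjusted limma p under 0.05 was reached by 0 (human) and 4 (mouse) of the 53, against 760 and 1255 of all 10891 genes. At the called shares above, hardly any call would fall among 53 genes. The SE of HLA-DRA was 0.867 in both comparisons, against a median of 0.12 over all genes, so a change with treatment could be missed. The 53 genes were chosen for a large difference between arrays of the same treatment, which widens their SE. Their lack of calls was thus partly set by the choice of genes and says little about treatment. The 53 genes had median log2 differences of -0.73 with human and -0.91 with mouse ERFE, against 0.01 and -0.00 over all genes. With the array class as a covariate these medians were -0.32 and -0.08. Class was unevenly spread over treatment and these genes were chosen by class, so this shift was partly set by the choice. HLA-DRA itself had -0.89 with human ERFE (limma adjusted p = 0.899) and -1.25 with mouse ERFE (adjusted p = 0.649). The 2 treatments share their untreated arrays, 3 of which were high.

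Some targets of BMP signalling, which ERFE is known to lower, changed with treatment. Of 9 measured, limma called 5 for human and 4 for mouse ERFE. SMAD7 (limma adjusted p = 0.0864 for human and 0.0693 for mouse ERFE), BAMBI (0.851 and 0.894), MSX1 (0.789 and 0.602) and HEY1 (0.93 and 0.878) were not called. HAMP, the hepcidin gene, was 6.96, 7.28, 7.24 and 6.62 on the untreated arrays A1, A3, B3 and C4. It was 4.88 to 5.51 on the 8 treated arrays, 1 of 4 detected in each treated group. The groups did not overlap, and the low untreated array C4 lay with the high ones. HAMP fell by 1.85 with human ERFE (SE 0.18, n = 4 a group, limma adjusted p = 0.000722) and by 1.81 with mouse ERFE (adjusted p = 0.00193). With class as a covariate it fell by 1.80 (adjusted p = 0.00134) and by 1.70 (adjusted p = 0.0101). ID1, ID3 and SMAD6, direct targets of the BMP pathway, fell with both proteins with and without the covariate, and ID2 did so with human ERFE (mouse adjusted p = 0.0605). The ID2 call was lost without any of the human ERFE arrays B2 and C3 or the untreated arrays A3 and B3 (adjusted p = 0.0507 to 0.0792), and the mouse ID1 call without B3 (adjusted p = 0.0625). With the title number as a block ID1, ID3 and SMAD6 lost their calls for both proteins (adjusted p = 0.0609 to 0.0612 for human and 0.0883 for mouse ERFE). With median centring ID1 lost its call for both (adjusted p = 0.119 and 0.0934). The human ID2 call was also lost with median centring (adjusted p = 0.307). It was lost as well with the title number, the replicate number or the title letter as a block (adjusted p = 0.151, 0.11 and 0.0704). The title letter as a block also removed the mouse ID1 call (adjusted p = 0.0627). Between high and low arrays the 9 measured BMP targets differed by -0.11 to 0.22 (median -0.06), with 0 of them 2-fold.

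The covariate changed how many genes were called. With class as a covariate limma called 17 genes for human ERFE, all 17 among the 27, and 15 for mouse ERFE, 14 of them among the 24. With the log2 HLA-DRA signal in its place it called 17 and 16. Leaving out C4, the only low untreated array, raised the counts without a covariate from 27 to 52 and from 24 to 156, and left 3 untreated arrays that were all high. Leaving out any other single array gave 11 to 24 and 8 to 24. Without untreated A3, 11 and 10 genes were called, and without untreated B3, 16 and 8. Without A1 the counts were 16 and 17, and without A4 20 and 15. Without the human ERFE arrays A2, B2 and C3 the human count was 16, 14 and 13. With the title number as a block, limma called 5 genes for human ERFE and 0 for mouse ERFE, where HAMP had -1.76 (adjusted p = 0.0883).

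**Figure D5:**
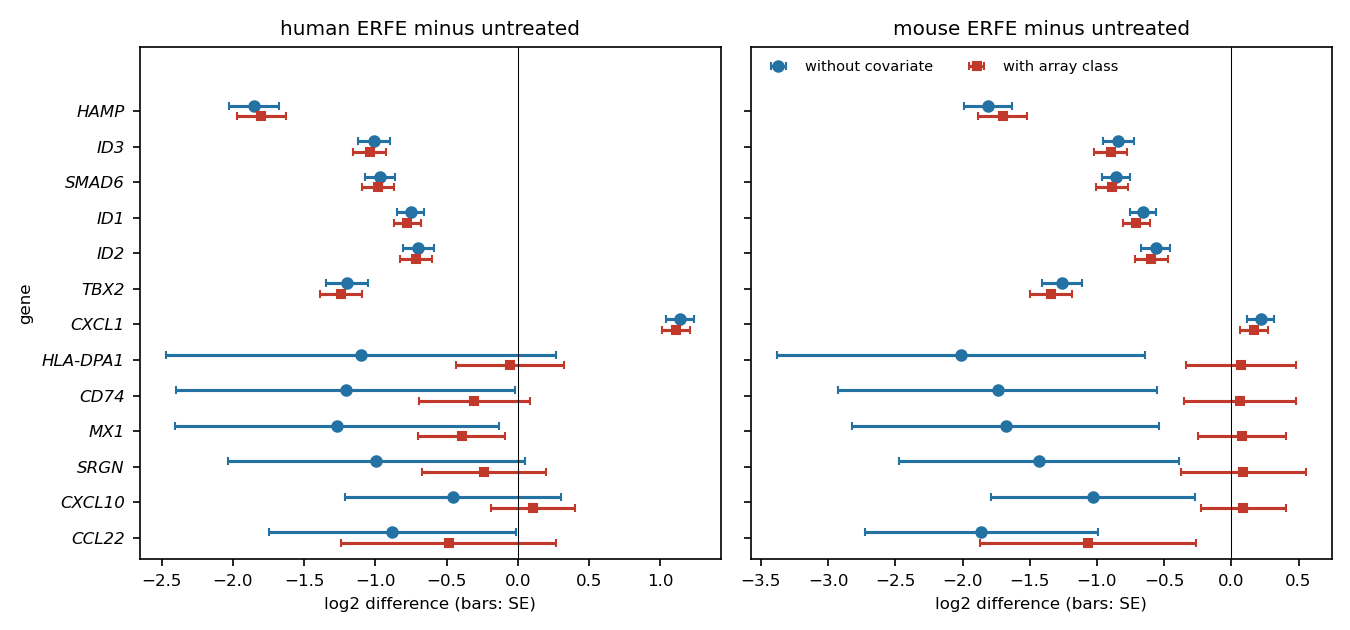
Log2 difference from untreated cells (x axis, bars are SE) for human ERFE (left) and mouse ERFE (right), without a covariate (circles) and with array class as a covariate (squares), for 13 genes (y axis). HAMP lies between -1.85 and -1.70 in all 4 fits, while HLA-DPA1 moves from -1.10 to -0.06 and from -2.01 to 0.07. HLA-DPA1 was chosen by its class difference and class was unevenly spread over treatment, so its move was partly set by the choice.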

How the data were processed

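Biotinylated cRNA was made from total RNA of Huh7 cells for 12 Illumina arrays, per the labels' protocols. The deposited values are linear intensity per probe and a detection p-value, per the file headers. Lumi and limma are the tools given in the submitters' processing notes, without role or version. The 2 other deposited tables, 1 of them called normalized, equalled the raw one in 567876 of 567876 values each. The members, the gene lists and the rule for naming genes were chosen with earlier results of these data known.

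Background correction and quantile normalization used limma's neqc (version 3.58.1, in R 4.3.3), which here estimated the controls from detection p-values, with an offset of 16. Of 47323 probes, 30113 had 1 symbol in the platform annotation, 8 several and 17202 none, and 30074 matched a RefSeq gene by Entrez ID. Probes detected (p under 0.05) on at least 4 arrays were kept (18646, of which 14152 had 1 symbol), and each gene took its brightest probe, which left 10891 genes (2679 with more than 1 probe). The high-minus-low difference came from a linear model with treatment as covariate and was called by size, 1 on the log2 scale. Treatment was tested with lmFit and eBayes over all 12 arrays, two-sided, with Benjamini-Hochberg adjustment at 0.05. A gene detected on no low array is given as at least N-fold over the lowest detected signal of those arrays, without adjustment for treatment. Relations within the high arrays, first planned with a test, are given as correlations only, since the arrays were chosen by HLA-DRA.

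Named genes were the 5 markers, the 25 largest differences without overlap detected on all high arrays, 10 in the mirror direction, up to 5 leading members of each list, the BMP targets and the leading treatment genes. Genes on a set list of polymorphic HLA genes, sex-linked genes, genes that some people lack and receptor genes of lymphocytes are not named as results. HLA-DPA1 and CCL4L1 were not on it, and HLA-DPB1 is given only as a listed gene detected on no array. ERFE itself was not analysed here. The scripts were tested on simulated data. A pair of mouse ERFE arrays (A4 and B4) is titled replicate 3. They were kept as 2 and averaged as an alternative. The SD of their difference (0.262) lay near the low end of all pairs in a group (0.259 to 0.384, this pair included). That does not tell whether they were separate replicates. The number of arrays limits the precision. Alternatives were other background corrections, filters, probe rules, blocks and covariates, and leaving out each array.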

Additional observations from a re-analysis of the deposited data

Results flagged for a closer look

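In groups of 4 or 6 arrays, an array stands apart where its gap to the nearest other array, divided by the range of the group, exceeds Dixon's 95% critical value. Chance gives about 5% of groups picked without regard to their values, and 9 of 91 groups of values looked at did so. Most genes here were chosen for how they part the classes, so that rate is no yardstick for this count. Among the 6 high arrays, A3 stood above the rest for SRGN (10.35 against 8.67 on the next array, gap over range 0.791) and for RFTN1 (7.53 against 6.38, 0.687). TMEM214 was lowest on B1 (8.29 against 8.50, 0.748) and TUBA4A on B2 (8.94 against 9.17, 0.654). Among the 6 low arrays, TYROBP was highest on C2 (5.77 against 5.07, 0.639) and PLD1 on C3 (9.27 against 8.74, 0.787). Within treatments, HLA-DRA on B1 stood above the other mouse ERFE arrays (10.56 against 7.83, 0.905). This restates the class rule, since B1 was the only high array given mouse ERFE. CD1A on B3 stood above the other untreated arrays (7.11 against 5.22, 0.845), and FCER1A on C1 above the other human ERFE arrays (6.24 against 4.86, 0.878).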

How the results depend on the processing

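The 28 leading high-against-low genes and markers stayed above 0 in 703 of 704 values over 26 settings, and 669 of these reached 2-fold. The exception was CCL22 within mouse ERFE arrays (-0.0251). The 25 leading genes had been chosen for no overlap and for a difference above 0 in each treatment group. The markers were chosen with these values known. This tally was thus largely fixed by the choice of genes and supports nothing by itself. Of 10891 genes, the 53 at least 2-fold higher became 26 with an offset of 50, 9 without background correction, and 11 with detection required on all 12 arrays, where fewer genes were tested. They were 48 to 58 with 1 array left out. The 0 genes at least 2-fold lower became 9 with the replicate block, 1 with the title letter as a block, 2 without the treatment covariate, and 17, 3 and 13 within untreated, human and mouse ERFE arrays, and 0 to 1 with 1 array left out. The 27 genes called for human ERFE became 6 with median centring, 13 with the replicate block, 5 with the title number and 15 with the title letter as a block, 17 with class and 17 with HLA-DRA as a covariate, and 11 to 52 with 1 array left out. The 24 called for mouse ERFE became 4 with median centring, 79 without background correction, 38 with an offset of 50, 62 with detection on all 12 arrays, 58 with the replicate block, 0 and 8 with the title number and letter as blocks, 13 with both arrays titled replicate 3 averaged, 15 with class as a covariate, and 8 to 156 with 1 array left out. The cause of these shifts was not tested.

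None of the genes that changed sign passed the threshold. With 1 array left out, CD1A ran from -0.189 to 0.772 for human ERFE (lowest without human ERFE replicate 1) and from -0.158 to 0.965 for mouse ERFE (lowest without mouse ERFE replicate 1). CCL22 ran from -1.55 to 0.12 for human ERFE (highest without untreated replicate 2), and HEY1 from -0.278 to 0.0351 for mouse ERFE (highest without replicate 3-B4). With class as a covariate HLA-DRA and CD74 turned to 0.0512 and 0.0658 for mouse ERFE, and with HLA-DRA as a covariate CD74 to 0.00598 for human ERFE. Arrays that share a replicate number across groups had correlations of deviations from -0.318 to 0.332, with 2 of 12 pairs over 0.1, so the numbers were not taken as pairs.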
